A study of Homo sapiens with 2 samples.

Results

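Band 8q24.3 is the last band of the long arm of chromosome 8. Its peaks were chosen by position, as every row of the deposited list on chromosome 8 from position 139900000 to 146364022 of GRCh37. The band holds 738 of the 105637 peaks in the list, or 14.1% of the 5216 on chromosome 8. It was picked for its crowding as seen in this list, so its density is given below as a description, without a test. The study precipitated chromatin from the established human lung adenocarcinoma line A549 after stable overexpression of Myocardin (gene MYOCD) from the vector pWPI. Both libraries come from this overexpressing line, 1 made with an antibody against Myocardin and 1 with IgG, and neither has a replicate. The single deposited list gives a 1 bp summit and a peak score per row and ties no peak to either library. No peak in the band can therefore be told apart from IgG signal here.

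Myocardin is a coactivator that does not read DNA by itself but is carried to it by the serum response factor, which binds CArG boxes near smooth and cardiac muscle genes. Bands at the tips of chromosomes are often light under Giemsa stain, rich in genes and rich in G and C, and 8q24.3 is such a band. In the RefSeq gene table of GRCh38.p14, 106 protein-coding genes follow one another from KCNK9, a potassium channel gene, to C8orf33, the last on the chromosome. Long genes stand first, among them TRAPPC9, a subunit of a vesicle tethering complex, AGO2, the slicing Argonaute of RNA interference, and PTK2, which encodes focal adhesion kinase. After them come ADGRB1, an adhesion receptor, ARC, a regulator of synaptic plasticity, PSCA and the LY6 genes of small surface proteins, and CYP11B1, a steroid hydroxylase. Genes nearer the end of the arm include GSDMD, the pore-forming effector of pyroptosis, SCRIB, a polarity scaffold, PLEC, a cytoskeletal linker, HSF1, the main heat shock factor, and RECQL4, a DNA helicase. Several zinc-finger genes and RPL8, a ribosomal protein gene, close the arm. The list and the gene table use different assemblies, so no peak is assigned to any of these genes, and no sequence is printed.

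The band was crowded along nearly its whole length. It carried 114 peaks per Mb, against 27.3 per Mb in the rest of 8q, the 93.1 Mb from the first summit after the longest peak-free stretch (position 46841792) to the band's start. The ratio was 4.19 (exact 95% interval 3.85 to 4.55, from the 738 and 2536 peaks, counting error only). The band makes up 6.495% of the length of band and rest together and holds 22.5% of their peaks. The rest of 8q holds 14 side-by-side stretches as long as the band. None of them came near it, and they held 103 to 248 peaks, with a median of 183.5.

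**Figure D1:**
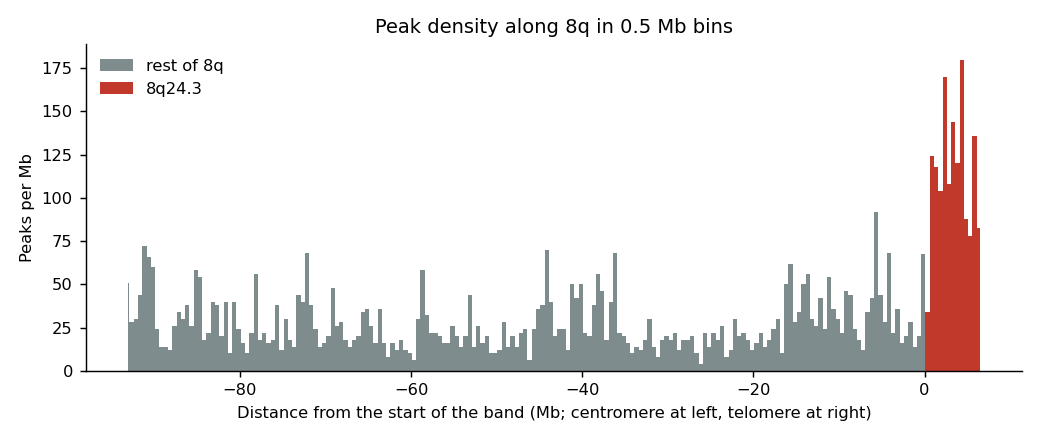
Peaks per Mb in bins of 0.5 Mb along 8q, against distance from the start of 8q24.3 in Mb, with the band in red and the rest of the arm in grey; partial bins are scaled to their length. The red bins beyond the first 0.6 Mb stand between 78 and 180 peaks per Mb, and the tallest grey bin reaches 92.

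Density was already raised across the edge of the band and dipped just inside it. The last summit outside it lay at 139895442 with a score of 8.25, and the first inside at 139916152 with a score of 6.31. The 0.4 Mb before the edge held 27 peaks (67.5 per Mb), after bins of 7 and 10 peaks from 138.5 to 139.5 Mb. Inside the band, the 0.1 Mb up to 140 Mb held 6 peaks (60.0 per Mb) and the bin from 140 to 140.5 Mb held 17 (34 per Mb). The next bin, from 140.5 to 141 Mb, held 62. From there the counts per 0.5 Mb were 59, 52, 85, 54, 72, 60 and 90 up to 144.5 Mb. They then fell to 44 and 39 up to 145.5 Mb and rose to 68 in the bin up to 146 Mb. The final 0.364 Mb held 30 peaks, or 82.4 per Mb, and its last summit, at 146300914 with a score of 19.3, lay 63.1 kb before the end of the chromosome.

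The 11 full bins from 140.5 to 146 Mb all lay far above the usual level of the arm. They held 39 to 90 peaks, with a median of 60, whereas the 185 full bins of the rest of 8q held 2 to 46, with a median of 11. Only 1 of those 185 bins, at 134 to 134.5 Mb with 46 peaks, reached the lowest of the 11. Of the band's 14 bins, 9 held at least 50 peaks, a level reached by 5.18% of all 5775 bins with a peak in the list. The bin from 144 to 144.5 Mb, with 90 peaks, was the fullest of all 5775, and the bin from 142 to 142.5 Mb, with 85, ranked 3. The bin from 143 to 143.5 Mb, with 72, ranked 19.

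At a finer scale the crowding was patchy. In windows of 100 kb counted from the band's start, 41 of 64 held at least 10 summits, against 12 of 930 in the rest of 8q. The fullest window, at 144.3 to 144.4 Mb, held 25 summits, followed by 23 at 144.0 to 144.1 Mb and 20 at 142.1 to 142.2 Mb. The highest count of any such window in the rest of 8q was 15. One window of the band, at 145.3 to 145.4 Mb, was empty. It lies inside the band's widest spacing, 145 kb between the summits at 145288388 and 145433099. The next widest, of 114 kb (140063907 to 140177748) and 79.1 kb (140336509 to 140415585), both fell in the sparse first 0.6 Mb. Whether the empty window or any of these spacings holds an unsequenced gap of the assembly was not examined.

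Scores in the band were low. They ran from 2.52 to 179, with a median of 7.31 (95% interval 7.01 to 7.60), against 10.1 (9.31 to 10.2) in the rest of 8q and 8.50 over all nuclear peaks. The score is the peak caller's value for each peak, as the authors deposited it, and has no stated unit. Of the 738 peaks, 118 (16.0%, exact 95% interval 13.4 to 18.8) scored 12.2 or more, the upper quartile of the list, which ties extend to 26.3% of nuclear peaks. In the rest of 8q the share was 37.2% (35.3 to 39.1). Scores under 5 were carried by 15.3% of the band's peaks (12.8 to 18.1), 6.03% of those in the rest of 8q (5.14 to 7.03) and 9.79% of nuclear peaks. None of the 14 stretches of equal length had a median score as low as the band's (8.65 to 12.2) or so small a share in the upper quartile (28.5% to 52.4%).

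The excess over the rest of the arm therefore depended on the score. Peaks scoring under 5 were 10.6 times as dense in the band as in the rest of 8q (8.26 to 13.6), and those from 5 to 8 were 6.98 times as dense (6.07 to 7.996). From 8 to 12 the ratio was 3.55 (3.02 to 4.17), and from 12 to 20 it was 1.81 (1.43 to 2.26). From 20 to 30, with 22 peaks in the band and 216 outside, the ratio was 1.47 (0.900 to 2.28). From 30 to 50, with 6 peaks in the band and 39 outside, it was 2.21 (0.766 to 5.27). In the upper quartile as a whole the band held 18.3 peaks per Mb and the rest of 8q 10.1, a ratio of 1.80 (1.47 to 2.18). The fullest bin by this count was not the fullest overall. It was the bin from 141 to 141.5 Mb, with 18 of 59 peaks in the upper quartile. In the rest of 8q the bin from 86.5 to 87 Mb held 19, and that from 134 to 134.5 Mb held 18.

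**Figure D2:**
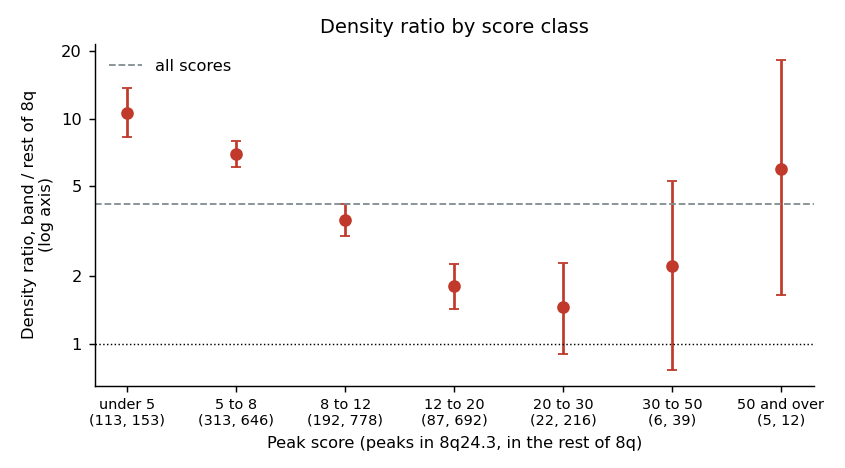
Density of peaks in 8q24.3 divided by that in the rest of 8q, for 7 classes of peak score (log axis, bars are exact 95% intervals for counting error, numbers of peaks in brackets). The ratio goes from 10.6 under a score of 5 to 1.47 at 20 to 30. It stands at 2.21 for 30 to 50, on 6 and 39 peaks, and at 5.998 for 50 and over, on 5 and 12 peaks.

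As a share of its peaks the band held fewer scores of 20 or more than the rest of 8q, but not fewer of 50 or more. It had 33 peaks scoring 20 or more (4.47%, 3.10 to 6.22), against 10.5% in the rest of 8q (9.36 to 11.8) and 6.16% of nuclear peaks. It had 11 scoring 30 or more (1.49%, 0.746 to 2.65), against 2.01% in the rest of 8q (1.501 to 2.64), with overlapping intervals, and 0.973% of nuclear peaks. Of these 11, 7 lay in the distal 1.86 Mb beyond 144.5 Mb, which held 181 of the 738 peaks. At scores of 50 or more the band had 5 peaks and the rest of 8q 12, a density ratio of 5.998 (1.66 to 18.3). As shares these were 0.678% (0.220 to 1.57) and 0.473% (0.245 to 0.825), with overlapping intervals, beside 0.158% of nuclear peaks. Of the 12 outside, 11 lay in a single bin, from 86.5 to 87 Mb, whose 22 peaks had a median score of 50.6. Without that bin, 92.6 Mb of 8q held 1 peak scoring 50 or more and the band 5. At 30 or more the share outside was then 1.47% (1.04 to 2.02), beside the band's 1.49%. This bin was singled out after its values were seen.

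The strongest peak of the band lay at 145180767, with a score of 179, and ranked 11 in the list. The next were at 144940526 (score 88.6), 145288388 (75.7), 145913120 (63.0) and 142502658 (52.8), with ranks from 43 to 150. Positions 145837982, 144744367, 146100555, 143947405 and 144154565 followed, with scores of 39.8, 38.3, 36.4, 33.7 and 33.5. Each stood well above its nearest neighbour, which follows largely from picking these peaks by rank of score. The summit closest to the strongest peak, 10.1 kb away, scored 3.71, and the neighbours of the other 9 scored 3.85 to 18.3. The third strongest peak, at 145288388, is also the last summit before the band's widest spacing.

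Peaks scoring 20 or more had a summit within 2 kb less often than those under 20, inside the band and outside it. None of the 11 peaks scoring 30 or more had another summit within 2 kb, whereas 44.8% of the band's peaks under 20 did (41.1 to 48.6). With 11 peaks, a count of 0 allows a share of up to 28.5% (exact interval). Of the 33 peaks scoring 20 or more, 6 had a summit within 2 kb (18.2%, 6.98 to 35.5). Their median distance to the nearest summit was 6.09 kb, against 2.45 kb for peaks under 20. In the rest of 8q, 5.62% of the 267 peaks scoring 20 or more had a summit within 2 kb (3.18 to 9.10), against 17.3% of those under 20 (15.8 to 18.9), with median distances of 15.3 and 10.3 kb. Of the 51 peaks scoring 30 or more in the rest of 8q, 6 had one (11.8%, 4.44 to 23.9), an interval that holds 17.3%. By median distance, peaks of the band scoring 20 or more lay nearer to other summits than those elsewhere on the arm.

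Summits of the band lay close together. The median distance between adjacent summits was 6.09 kb (95% interval 5.70 to 6.495), against 21.2 kb (20.03 to 22.5) in the rest of 8q. Another summit lay within 10 kb of 89.8% of the band's peaks (87.4 to 91.9), of 47.7% in the rest of 8q (45.8 to 49.7) and of 64.1% of nuclear peaks. Of the 737 spacings inside the band only 10 exceeded 50 kb, against 603 of 2535 outside. When summits less than 2 kb apart were linked, 43.6% of the band's peaks belonged to a group, in 118 pairs and 27 larger groups of up to 5 summits. In the rest of 8q 16.1% did, in 185 pairs and 12 larger groups of up to 4. Over all nuclear peaks, 11.1% had their nearest summit less than 1 kb away and 11.2% at 1 to 2 kb. The most crowded 20 kb of the band held 9 summits and occurred at 144015658 to 144034919 and at 144212315 to 144230773, both inside the fullest bin. Scores there ran from 3.65 to 12.8. The most crowded 20 kb in the rest of 8q held 6.

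Short spacings had much the same make-up inside and outside the band. Of the 535 spacings under 10 kb in the band, 25.2% measured 0.5 to 1.5 kb (21.6 to 29.1), against 22.3% of the 740 in the rest of 8q (19.3 to 25.5). Spacings of 2 to 5 kb made up 22.2% (18.8 to 26.0) and 21.4% (18.5 to 24.5), and those of 5 to 8 kb 30.7% (26.8 to 34.8) and 31.6% (28.3 to 35.1). The intervals overlapped in all 6 classes. The widest gap between shares was at 8 to 10 kb, with 14.02% in the band (11.2 to 17.3) and 18.5% outside (15.8 to 21.5). Overlap does not show that the shares are equal. Spacings under 0.5 kb were rare in both, with 12 in the band and 8 outside.

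**Figure D3:**
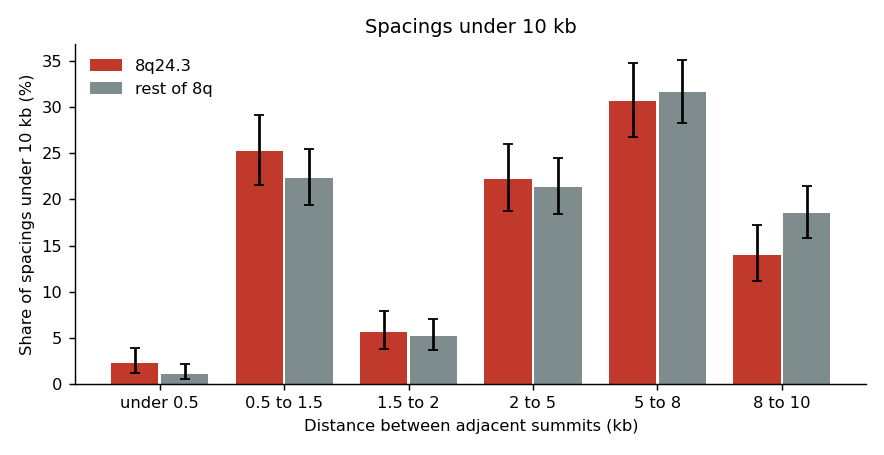
Share of the spacings under 10 kb between adjacent summits that fall in each of 6 distance classes (kb), in 8q24.3 (red, 535 spacings) and in the rest of 8q (grey, 740 spacings), with exact 95% intervals for counting error. The classes differ in width, and the red and grey bars overlap in their intervals in all 6 classes.

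Close neighbours went with low scores in the band, as they did over the whole list. Over all nuclear peaks, the upper-quartile share was 18.5% under 1 kb and 17.1% at 2 to 5 kb from the nearest summit. It was 27.6% at 5 to 10 kb and 36.0% at 20 kb and over. Compared with the rest of 8q, the share in the band was lower in each distance class. Among peaks with a summit less than 1 kb away, 9.94% in the band (5.79 to 15.6) and 35.4% in the rest of 8q (28.7 to 42.4) were in the upper quartile. At 1 to 2 kb the shares were 7.45% (3.91 to 12.7) and 38.6% (32.0 to 45.5), the widest separation. At 2 to 5 kb they were 13.75% (8.82 to 20.1) and 23.8% (18.9 to 29.3), with overlapping intervals. At 5 to 10 kb they were 27.6% (21.3 to 34.7) and 37.9% (33.7 to 42.2), and at 10 to 20 kb 24.6% (14.8 to 36.9) and 36.7% (32.7 to 40.9), with overlapping intervals. Only 10 peaks of the band lay 20 kb or more from any other, too few to place their share (2 of 10, interval 2.52% to 55.6%). Within the band the median score went from 6.497 under 1 kb to 8.28 at 5 to 10 kb. It was lower again at 10 to 20 kb (7.46, 65 peaks) and at 20 kb and over (7.37, 10 peaks). In the rest of 8q it was 10.4 under 1 kb and 9.99 at 5 to 10 kb.

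**Figure D4:**
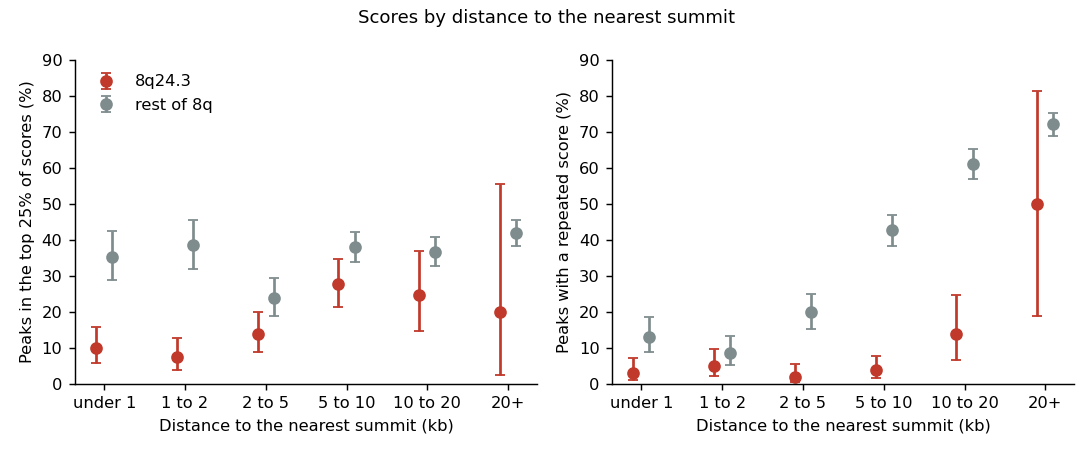
Share of peaks in the upper quartile of scores (left) and with a score shared by at least 150 peaks of the list (right), by distance to the nearest summit in kb, for 8q24.3 (red) and the rest of 8q (grey), with exact 95% intervals. The red points lie below the grey ones in all 6 classes of both panels, and the intervals overlap in some.

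The band also lacked the repeated scores that fill the rest of the arm. In the whole list 19 score values, from 3.29 to 20.8, are each carried by at least 150 peaks and together by 29.4% of nuclear peaks. Only 37 of the band's 738 peaks carried one (5.01%, 3.55 to 6.84), against 1218 of 2536 in the rest of 8q (48.0%, 46.1 to 49.99). Per Mb these peaks were rarer in the band, at 5.72 against 13.1 (ratio 0.437, 0.306 to 0.606), the reverse of the other peaks, at 108 against 14.2 (ratio 7.66, 6.98 to 8.398). The sparse first 0.6 Mb held 10 of the 37, among only 23 peaks. At 5 to 10 kb from the nearest summit the share was 3.87% in the band (1.57 to 7.81) and 42.7% outside (38.4 to 47.0). With repeated scores left out, the median score was 7.26 in the band and 11.9 in the rest of 8q.

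The bins of the band differed among themselves in score as well as in number. Median scores were highest in the 2 bins from 141 to 142 Mb, at 9.44 and 9.05, apart from the 6 peaks before 140 Mb (10.3). The lowest medians were 5.66 at 144.5 to 145 Mb and 6.23 at 143.5 to 144 Mb. The bin at 144.5 to 145 Mb nonetheless held the second strongest peak of the band. The share in the upper quartile was 30.5% at 141 to 141.5 Mb and 5.56% at 143 to 143.5 Mb. Over the 14 bins, peaks per Mb and the share of repeated scores had a Spearman's rho of -0.526, and over 179 bins of the rest of 8q with at least 5 peaks, -0.622. These bins share 1 list and its local background, so the values are descriptions.

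**Figure D5:**
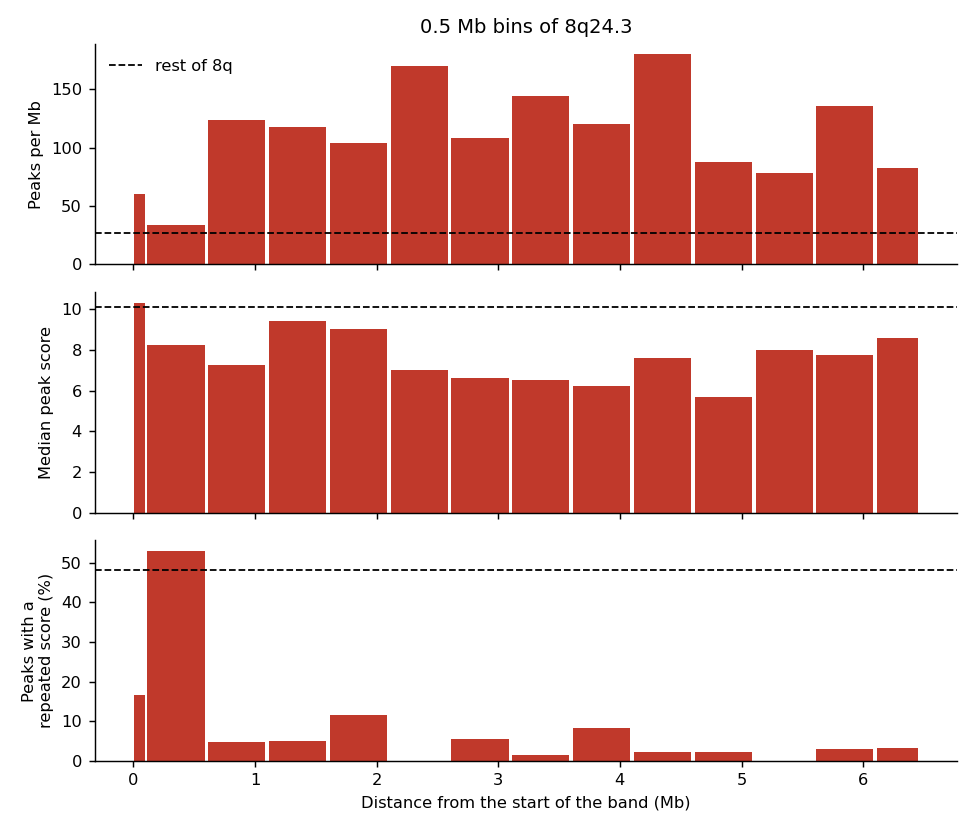
Peaks per Mb, median peak score and share of peaks with a repeated score in the 14 bins of 8q24.3, against distance from the band's start in Mb (first and last bins are partial); the dashed line is the value for the rest of 8q as a whole. In all bins but the first the median score lies under the dashed line at 10.1, and the repeated share exceeds its dashed line of 48.0% only in the second bin, at 52.9%.

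The densest bins elsewhere on 8q did not show the same scores. The 11 full bins of the rest of 8q with at least 29 peaks held 371 peaks, of which 31.0% were in the upper quartile (26.3 to 36.0) and 23.2% had a repeated score (19.0 to 27.8). In the band's 11 full bins from 140.5 Mb, with 685 peaks, the shares were 15.2% (12.6 to 18.1) and 3.80% (2.49 to 5.51). Only 1 bin outside reached the counts of these 11 bins, so the 2 sets were not matched in density. That bin, at 134 to 134.5 Mb, had 39.1% of its 46 peaks in the upper quartile and 13.04% with a repeated score.

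Next to other chromosome ends the band was ordinary in score and high in number. Over the 39 ends of autosomal arms, stretches as long as the band and measured inward from the outermost summit held a median of 70.2 peaks per Mb. The end of 8q, with 116, ranked 2, after the long arm of chromosome 17 with 130 and just ahead of its short arm with 113. The short-arm end of chromosome 8 itself held 59.4 and ranked 26. The share of peaks in the upper quartile was 16.1% at the end of 8q, near the median of 16.6% over the 39 ends (range 4.93% to 36.8%). The share of repeated scores was 5.62%, against a median of 12.4% (2.81% to 66.7%), and was the sixth lowest. The other ends of highest density were also low, at 4.53% (rank 1 in density), 6.56% (rank 3), 2.81% (rank 4) and 6.02% (rank 5). Base composition, mappability and copy number of the band were not examined, and their part in these values was not tested.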

How the data were processed

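The authors deposited 1 list for both libraries. Each row gives a position, a strand and the peak caller's score, per the file headers, and all intervals are 1 bp wide. The file name refers to MACS; the sources used here give neither its settings nor the aligner nor the use of the IgG library. The submitters' processing notes name CASAVA 1.4. Read depth was not given, and PCR duplicates (15 cycles) are not independent molecules. The notes name mm9 and GRCh38.p12, but 122 summits on chromosome 8 lie past its GRCh38 end, 3 past its hg18 end and 0 past its GRCh37 end. Positions were therefore read as GRCh37, and the end of each interval was taken as a 1-based position.

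Bins of 0.5 Mb start at multiples of 0.5 Mb. Shares carry exact Clopper-Pearson 95% intervals. Density ratios use the interval of the band's share of 8q peaks, and medians use binomial order statistics. All of these cover counting error only, as if peaks were independent. No test was run, since no samples can be compared. The interval and joining functions were tested on simulated data with known answers. Peaks were named by rank of score (10), bins by count, and spacings by width (3). The band, lists and thresholds were chosen with earlier results of these data known. The divisions at 140.5 and 144.5 Mb, the score classes, the repeated scores and the dense bins of the rest of 8q were chosen after seeing the data. Analyses used Python 3.11.15, pandas 2.3.3, NumPy 2.4.6 and SciPy 1.17.1.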

Additional observations from a re-analysis of the deposited data

How the results depend on the processing

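Of 41 alternatives over 8 results, 28 stayed within the interval of the value or within 1.5 times the count, 12 moved and 1 turned. With only the top 25% of scores, the density ratio was 1.80. The highest count in a bin of the band was then 18, below the 19 of the bin from 86.5 to 87 Mb outside. In this setting the median spacing was 30.8 kb (64.0 kb outside), and 29.7% of peaks had a summit within 10 kb (19.9% outside). By these peaks the end of 8q ranked 7 of 39. These lists hold fewer peaks. With repeated scores left out, chosen after seeing the data, the density ratio was 7.66. With summits less than 1 kb apart joined, the median score was 7.63 and the median spacing 6.94 kb. Among peaks with no other summit within 5 kb, the share in the top 25% was 26.6% (39.2% outside) and the median score 8.25 (10.2 outside); the cause was not tested. In the top 10% of scores lay 6.37% of the band's peaks (16.1% outside). Within 5 kb and 20 kb in place of 10 kb, 65.3% and 98.6% had a neighbour (27.1% and 69.4% outside). Moving the band's start by 0.5 Mb, leaving out its densest bin or the 3 Mb beside the arm's longest peak-free stretch kept each value tried within its interval. No paired analysis was possible because the list holds no values per sample. Leaving out a replicate was not possible either, with 1 library for each antibody. The depth of the libraries is unknown.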
